A study of Mus musculus with 288 samples.

Results

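Club cells are secretory cells of the airway lining. The wells described here held a single sorted lung cell whose RNA was rich in the club cell secretoglobin Scgb1a1 and low in the secretoglobin Scgb3a1 and in surfactant protein C (Sftpc). Members were chosen from their own counts: a total above 2340 counts, Scgb1a1 at 10% or more of that total, Scgb3a1 under 1% and Sftpc under 1%. The rule was met by 84 of 286 sorted wells, which is 84 of the 227 wells that passed the limit on the total (37.0%, exact Clopper-Pearson 95% interval 30.7 to 43.6%, counting error only). They are called Scgb3a1-low club wells.

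The study profiled single cells from the lungs of C57BL/6 mice aged 4 months. All carried Scgb1a1-CreER, a drug-inducible recombinase driven by the Scgb1a1 promoter, together with Rosa26-mTmG, a reporter whose fluorescent protein changes after recombination. Cells were sorted as Epcam+, CD45-, CD31- and CD24low and as positive for the Scgb1a1 lineage, and 2 wells served as negative controls. Lineage label records that the promoter was active when the recombinase was induced, so a sorted cell need not hold Scgb1a1 RNA at the time of sorting. The labels give no animal, drug dose or time for a cell. All sorted wells were therefore treated as 1 sample, no p-value was made from cells, and every interval covers counting error only. The 143 other kept wells comprised 72 Scgb3a1-high wells (Scgb1a1 at 10% or more and Scgb3a1 at 1% or more), 63 Sftpc wells (Sftpc at 1% or more) and 8 wells with Scgb1a1 under 10%.

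Club cells secrete Scgb1a1 onto the airway surface and hold much of the lung's capacity to oxidise and conjugate inhaled chemicals, through cytochrome P450 enzymes, carbonyl reductases and glutathione transferases. They renew themselves and give rise to ciliated and goblet cells of the airway. Secretory cells of the larger airways are known for Scgb3a1, mucin Muc5b and Bpif proteins, while those near the alveoli share surfactant genes with alveolar type 2 (AT2) cells.

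The Scgb3a1-low club wells held 482380 counts, from 2686 to 9718 a well with a median of 5456, and 762 to 2449 detected genes (median 1509). Median totals were 7010 counts in Scgb3a1-high wells and 3529 in Sftpc wells. The controls held 41 and 234 counts, of which Scgb1a1 gave 20 and 18. By position in the table, 36, 33 and 15 members were in the first, the second and the third set of 96 columns, or 43.9%, 40.7% and 23.4% of the kept wells there. Scgb3a1-high wells numbered 37, 31 and 4, and Sftpc wells 6, 17 and 40. No label says what the order of columns stands for. The ribosomal RNA gene Rn45s took a median of 8.69% of the counts of members, 8.24% in Scgb3a1-high wells and 11.2% in Sftpc wells.

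The 3 genes of the rule are described without a comparison. Scgb1a1 ran from 15.5% to 49.2% of a member's counts with a median of 32.2%. Scgb3a1 was at 0 in 61 of the 84 wells, and the other 23 held 127 counts together, 63 of them in 1 well. Sftpc gave 119 counts in 43 wells, at most 18 in a well. Just inside and just outside the limits, totals were 2686 and 2166 counts, Scgb1a1 shares 15.5% and 6.59%, Scgb3a1 shares 0.876% and 1.01%, and Sftpc shares 0.442% and 2.07%. Members were thus far from the limits on Scgb1a1 and Sftpc, while the highest member for Scgb3a1 lay just inside.

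**Figure D1:**
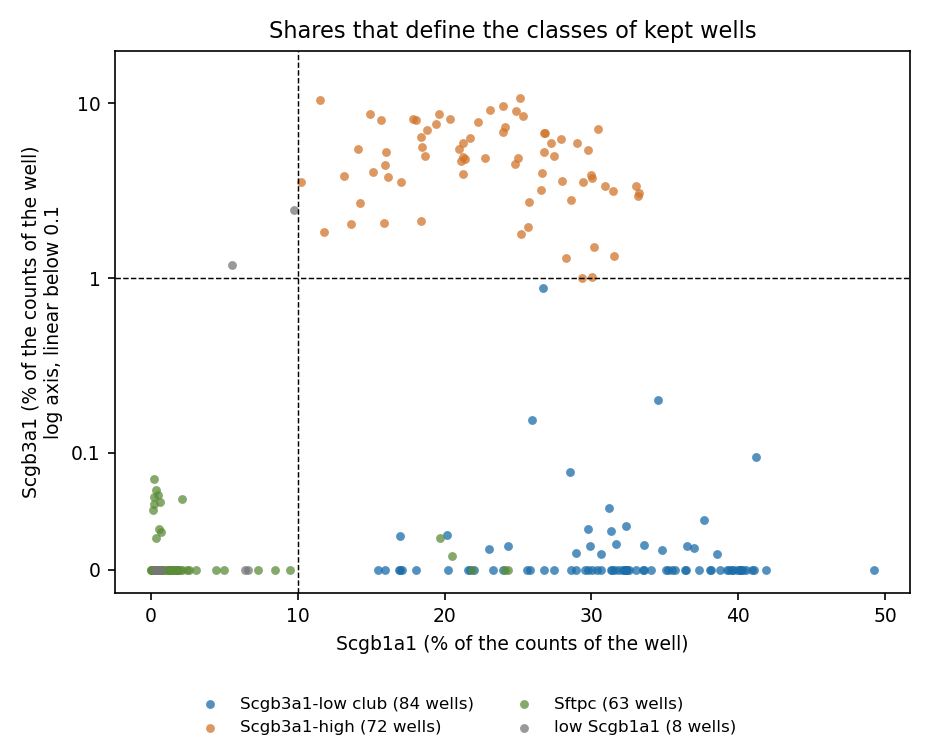
Each point is 1 of the 227 kept wells, placed by its Scgb1a1 share (x, percent of the well's counts) and Scgb3a1 share (y, percent, log axis that is linear below 0.1), with dashed lines at the limits of 10% and 1%. The 84 Scgb3a1-low club wells lie right of the vertical line and below the horizontal one, most of them at 0 on the y axis.

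The label was checked against 4 club cell markers outside the rule. A well's level is given throughout as counts per 10000 counts of that well, and a class's level as its pooled counts on the same scale. Cyp2f2 (chromosome 7, 27119909 to 27133660, GRCm38), the P450 enzyme that activates naphthalene in club cells, had levels of 37.8, 202 and 319 in the lowest, median and highest member. Cbr2 (chromosome 11, 120729489 to 120732114), carbonyl reductase 2, had 98.5, 277 and 517. Both were found in all 84 wells. In Scgb3a1-high wells the 3 values were 49.4, 130 and 267 for Cyp2f2 and 49.4, 136 and 255 for Cbr2. The ranges overlapped, and 14 members lay above the highest Scgb3a1-high well for Cyp2f2 and 49 for Cbr2.

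Haptoglobin (Hp; chromosome 8, 109575128 to 109579172), a hemoglobin-binding secreted protein, had levels of 8.01, 71.7 and 182 in members. Aldh1a1 (chromosome 19, 20492715 to 20643465), an aldehyde dehydrogenase that makes retinoic acid, had 2.51, 27.5 and 73.5. Each was found in all members. In Sftpc wells the medians were 11.0 for Hp and 0 for Aldh1a1, with maxima of 74.4 and 18.2. All 4 markers were therefore present in every member. Cyp2f2, Cbr2 and Aldh1a1 were also found in every Scgb3a1-high well, so presence alone does not set members apart from that class. Summed over the 4 markers, the pooled level was 593 in members, 340 in Scgb3a1-high wells and 131 in Sftpc wells.

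**Figure D2:**
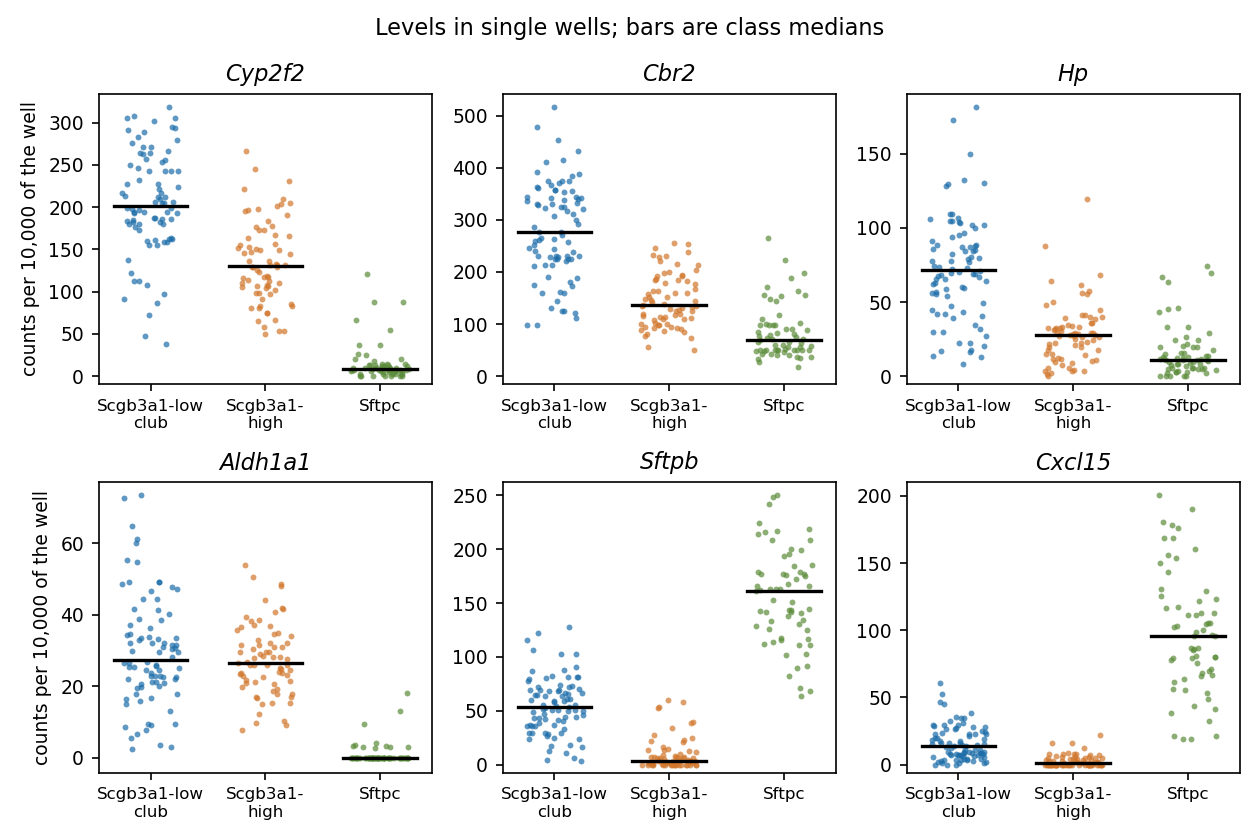
Each point is the level of a gene in 1 well (counts per 10000 of the well), for 84 Scgb3a1-low club, 72 Scgb3a1-high and 63 Sftpc wells; horizontal bars are class medians and sideways spread is only for legibility. Cyp2f2, Cbr2 and Hp are highest in the club wells with overlapping ranges, Aldh1a1 is alike in the club and Scgb3a1-high wells (medians 27.5 and 26.7), and Sftpb and Cxcl15 lie between the other classes.

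Markers of ciliated, goblet, basal, endothelial and immune cells were few in members, while some alveolar genes were common. The ciliated set (Foxj1, Tppp3, Ccdc153) gave 47 counts in 8 wells, of which 3 held 3 or more counts. The 3 wells with Foxj1, the master regulator of ciliated cells, held 3, 16 and 8 counts of it and 9, 5 and 9 of 15 ciliated genes. Foxj1 was called higher than in Scgb3a1-high wells on 27 and 6 counts, all 27 from these 3 wells and 4 of the 6 from 1 well, and whether they held a ciliated cell beside a club cell was not tested. Of AT2 genes, Lamp3, Slc34a2, Napsa and Lyz2 together gave 37 counts in 20 wells, a pooled level of 0.767 against 162 in Sftpc wells. By contrast, Sftpb was found in all 84 members and Sftpa1 in 80. The AT1 genes Ager, Aqp5, Hopx and Pdpn gave 250 counts in 69 members, 43 of which held 3 or more, a pooled level of 5.18 against 4.96 in Scgb3a1-high wells and 14.0 in Sftpc wells. Goblet genes (Muc5b, Tff2, Agr2 and Spdef, with Muc5ac at 0) gave 65 counts in 15 wells. Basal Krt15 gave 8 counts, while Krt5, Trp63 and Aqp3 were at 0. Endothelial Kdr gave 13 counts and immune Cd68 5, and Ptprc, Pecam1 and the mesenchymal genes Col1a1, Dcn and Mgp had none in 84 wells, which allows up to 3.57% of wells with a count.

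Promoter sequence is shown for 3 genes on which the description turns: Cyp2f2 as a marker, Ptgs2 as the gene with the largest ratio to Scgb3a1-high wells among those outside the lists with at least 100 counts, and Scgb3a1, the gene that the rule excludes. Each run is 200 bases from 250 to 51 bases before the RefSeq transcription start (GRCm38.p6), 5′ to 3′ on the gene's strand. Capitals mark a match to CAAGTG, a core word of NK2 homeobox factors such as Nkx2-1, or to TTGCGCAA, a C/EBP word, searched on both strands. TGTTTAC, a forkhead word, was searched too and was not in these windows.
Cyp2f2, chr7:27119705-27119904, + strand: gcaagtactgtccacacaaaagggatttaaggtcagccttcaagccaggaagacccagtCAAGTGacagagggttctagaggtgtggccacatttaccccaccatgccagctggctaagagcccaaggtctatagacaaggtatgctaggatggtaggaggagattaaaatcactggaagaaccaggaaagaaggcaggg
Ptgs2, chr1:150099781-150099980, + strand: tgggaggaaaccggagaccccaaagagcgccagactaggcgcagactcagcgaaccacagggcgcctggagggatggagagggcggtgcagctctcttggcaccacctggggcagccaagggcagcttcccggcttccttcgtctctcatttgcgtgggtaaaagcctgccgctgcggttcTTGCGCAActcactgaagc
Scgb3a1, chr11:49663345-49663544, + strand: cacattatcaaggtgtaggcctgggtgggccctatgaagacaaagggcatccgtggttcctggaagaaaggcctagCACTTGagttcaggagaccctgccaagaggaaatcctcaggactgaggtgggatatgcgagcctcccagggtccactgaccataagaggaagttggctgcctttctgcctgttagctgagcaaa
Of 27025 promoters in the table, 9.76% held CAAGTG, 0.130% held TTGCGCAA and 2.51% held TGTTTAC in the same window. CAAGTG was found once in the window of Cyp2f2 and once in that of Scgb3a1, there on the opposite strand, so that the capitals read CACTTG. TTGCGCAA was found once, in Ptgs2. The windows of Cbr2, Aldh1a1, Sftpb, Cxcl15, Scgb1c1, Bpifa1, Bpifb1, Reg3g and Ltf were searched too and held none of the 3 words. The printed windows are thus the searched ones that held a match. A gene found in every member and a gene nearly absent from them thus carried the same common word. A match describes letters and is no site of binding.

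Against all 143 other kept wells, members were lower in AT2, MHC class II, goblet and antimicrobial genes, and club cell markers were mixed. A gene was measured when both classes together held at least 20 counts, and called when the pooled levels differed by at least 2-fold with an interval off 1. Of 5489 measured genes, 154 were higher (2.81%) and 498 lower (9.07%), with a median log2 ratio of -0.16. Dividing by other totals moved that median by 0.12 to 0.15 and the share of higher genes among called ones from 23.6% to between 34.2% and 36.6%. Of 15 measured club markers, 7 were higher and 3 lower (median 0.58). Detoxifying enzymes went both ways. Of 18 glutathione transferase and glutathione synthesis genes, 4 were higher, the synthesis gene Gss among them, and 1 lower (median 0.46). Of 12 P450 and related genes, 2 were higher and 3 lower (0.30). Carbonyl, aldehyde and flavin enzymes had 4 of 18 higher and 4 lower (-0.18). AT2 markers were lower in 10 of 14 (median -2.49) and goblet genes in 4 of 8 (-2.47), with none higher. Some of these genes were measured only through the Sftpc or the Scgb3a1-high wells. MHC class II genes were lower in 4 of 4 (median -3.68), and secreted antimicrobial genes in 9 of 14 with none higher (median -1.39). Against Scgb3a1-high wells alone, only 1 class II gene (Cd74) was measured, and it was not called. Because the other wells mix 3 classes, each of the larger ones is taken separately.

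Scgb3a1-high wells are the closest class, since both meet the limit on Scgb1a1. Members were higher in the surfactant protein genes Sftpb and Sftpd, in 6 of 17 glutathione transferase and synthesis genes and in the prostaglandin enzyme Ptgs2. They were lower in 6 of 13 antimicrobial genes, 4 of 8 goblet genes, 4 of 6 keratins and 10 of 16 S100, annexin and galectin genes. Of 4345 measured genes, 269 were higher (6.19%) and 310 lower (7.13%), and the median log2 ratio was -0.01. Other scalings moved that median by -0.06 to 0.09 and the share of higher genes among called ones from 46.5% to between 40.6% and 53.5%. The classes were cut from the same counts, so these ratios describe them and test nothing. In the third set of columns, with 4 Scgb3a1-high wells, fewer genes were measured, and 34 were higher (7.39% of them) and 17 lower (3.70%).

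Among secretoglobins outside the rule, 1 was lower and 1 higher in members. Scgb3a2, a secretoglobin of the airway, had a pooled level of 192 in members and 449 in Scgb3a1-high wells, a ratio of 0.428 (0.417 to 0.438). Its lowest, median and highest member stood at 0, 152 and 582, against 16.6, 452 and 857. Only 4 members exceeded the median Scgb3a1-high well. Scgb1c1, a lesser known member of the family, gave 121 counts in 57 member wells and 18 counts in 9 Scgb3a1-high wells, a ratio of 6.99 (4.24 to 12.2). Of 15 measured club markers, 3 were higher (Hp, Cckar and Iyd) and 4 lower (Scgb3a2, Kcne3, Chad and Lypd2), with a median of 0.22. Iyd was called on 27 and 4 counts (7.02, or 13.8 without 1 Scgb3a1-high well).

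Hp had a pooled level of 73.5 in members and 29.1 in Scgb3a1-high wells, a ratio of 2.53 (2.38 to 2.69). Its log2 ratio was 1.14 and 1.77 in the first and the second set of columns and -0.16 in the third, so the direction was not kept there. Cckar, the cholecystokinin A receptor, gave 169 counts against 45 (3.91, 2.80 to 5.56). Cbr2 and Cyp2f2 were 1.92-fold (1.86 to 1.97) and 1.52-fold (1.47 to 1.56) higher, under the 2-fold limit. Cbr2 lay so near the limit that the choice of scaling decides its call. Aldh1a1 stood at 30.4 and 27.7, a ratio of 1.10 (1.02 to 1.18). Chad and Lypd2, both in the club marker list, were lower at 0.138 (0.107 to 0.176) and 0.231 (0.199 to 0.266). Club enzymes and this second group of markers therefore did not move together between the classes.

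Glutathione transferases conjugate glutathione to reactive compounds. Their list also held glutathione synthesis genes such as Gss and Gclc. Of 17 measured genes of the list, 6 were higher (Gsta2, Gstm2, Gstt1, Gstt3, Gstk1 and Gstz1) and 1 lower (Gsto1), with a median log2 ratio of 0.44. Gstm2 gave 199 counts in members and 87 in Scgb3a1-high wells (2.38, 1.84 to 3.10), and Gstk1, of mitochondria and peroxisomes, gave 80 and 22 (3.78, 2.34 to 6.37). Gsto1, the omega class enzyme, went the other way, with medians of 5.25 in members and 24.4 in Scgb3a1-high wells and a ratio of 0.236 (0.208 to 0.268). Mgst1 and Gstm1 passed no limit, at 0.937 (0.862 to 1.02) and 1.43 (1.25 to 1.62).

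Of 12 measured P450 and related genes, 3 were higher and 2 lower (median 0.28). Ephx1, the microsomal epoxide hydrolase, was 2.12-fold higher (1.73 to 2.59), and Cyp2b10 2.72-fold (1.62 to 4.74), on 55 and 21 counts. Cyp2s1 was also called higher on 23 and 8 counts, all 8 from 1 Scgb3a1-high well. Cyp2a5, a P450 of the upper airway, was found in 8 members and 46 Scgb3a1-high wells (0.116, 0.0796 to 0.165), a log2 ratio of -3.10, or -4.51 without 1 member. Cyp4a12b gave 2 and 53 counts. Carbonyl, aldehyde and flavin enzymes had 2 higher (Aldh1a7 and Nqo1) and 4 lower (Aldh3a1, Adh7, Ces1f and Sult1d1) of 17, with a median of -0.43. Aldh1a7, close in sequence to Aldh1a1, was 2.63-fold higher (2.09 to 3.33), while Aldh3a1, an aldehyde dehydrogenase of surface epithelia, was lower at 0.204 (0.152 to 0.270). Enzymes of 1 list thus differed in opposite directions.

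Antioxidant genes were called in 3 of 16, all higher (median 0.15). Prdx6, a peroxiredoxin that also acts as a phospholipase on surfactant lipid, had levels of 0, 26.4 and 118 in members and 2.84, 12.7 and 24.7 in Scgb3a1-high wells. The ratio was 2.17 (1.98 to 2.39), and 48 of 84 members lay above the highest Scgb3a1-high well. Catalase (Cat) was 2.16-fold higher (1.64 to 2.88). Prdx4 was called on 19 and 7 counts, and not without 1 member. No gene of 14 in the respiratory chain was called, with a median of 0.27.

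Of 10 measured genes of the AT2 list, 6 were higher (Sftpb, Sftpd, Slc34a2, Abca3, Cxcl15 and Scd1) and 1 lower (Lyz2), with a median of 1.20. Sftpb (chromosome 6, 72304610 to 72314371), the hydrophobic surfactant protein B, was found in all 84 members at 3.08, 54.0 and 128. In Scgb3a1-high wells it was found in 54 of 72 at 0, 3.63 and 60.1. The pooled ratio was 5.88 (5.33 to 6.50), and 36 members lay above the highest Scgb3a1-high well. Within the first, the second and the third set of columns its log2 ratio was 2.26, 3.29 and 0.54.

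Cxcl15, a lung chemokine, had member levels of 0, 13.7 and 60.7 and Scgb3a1-high levels of 0, 1.16 and 21.7 (5.47, 4.58 to 6.58). Sftpd, a collectin of innate defence, had 0, 16.1 and 62.2 against 0, 6.89 and 23.3 (2.65, 2.36 to 2.99). Sftpa1, also a collectin, was not called, at 40.1 and 48.6 pooled (0.825, 0.777 to 0.877). Abca3, the lipid transporter of lamellar bodies, gave 98 and 42 counts (2.43, 1.67 to 3.57). Slc34a2, the phosphate transporter of AT2 cells, was called on 23 and 11 counts with a lower bound of 1.02. Sfta2, a surfactant-associated secreted protein outside the list, gave 119 and 21 counts (5.90, 3.69 to 9.88), but its log2 ratio was -0.30 in the third set.

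Lamp3, a lamellar body protein, gave 2 counts in all members and 346 in Sftpc wells. Lysosome genes had 2 of 13 higher (median 0.31): Npc2, a cholesterol carrier, at medians of 17.9 and 4.17 (3.81, 3.30 to 4.41), and the protease Ctsc on 69 and 19 counts.

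Of 6 measured alveolar type 1 (AT1) markers, Ager and Hopx were higher and Pdpn lower, with a median of 0.42. Ager, the receptor for advanced glycation end products, gave 67 counts in 33 members and 4 counts in 4 Scgb3a1-high wells (17.4, 6.50 to 65.8). Hopx, a homeodomain-only protein, gave 90 and 39 counts (2.40, 1.63 to 3.59). Pdpn, podoplanin, gave 1 and 113 counts (0.00921, 0.000231 to 0.0523). Summed over Ager, Aqp5, Hopx and Pdpn the 2 classes stood at 5.18 and 4.96. Single AT1 genes thus differed in opposite directions while their sum was close. Against Sftpc wells, 4 of 6 measured AT1 genes were lower in members, Ager among them at 0.146, and Hopx was higher.

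Secreted defence genes showed the largest ratios. Of 13 measured antimicrobial genes, 6 were lower (Bpifa1, Bpifb1, Lyz2, Ltf, Wfdc1 and Reg3g) and Sftpd was higher, with a median of -0.50. Bpifa1, a surfactant-like antimicrobial protein of the upper airway, gave 18 counts in 10 members and 11998 counts in 57 Scgb3a1-high wells, where levels were 0, 27.0 and 1852. Its pooled ratio was 0.00156 (0.000925 to 0.00247). No member reached the median Scgb3a1-high well. Reg3g, a C-type lectin that kills Gram-positive bacteria, had a median of 0 in members with a highest level of 9.74, and 0, 44.2 and 267 in Scgb3a1-high wells (0.00345, 0.00172 to 0.00618), a log2 ratio of -8.18, or -9.62 without 1 member. Bpifb1, of the same family as Bpifa1, was found in 7 members and 67 Scgb3a1-high wells (0.00758, 0.00474 to 0.0115). Wfdc2, a protease inhibitor of airway secretions, was in every well of both classes at medians of 75.3 and 91.8 and was not called.

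Complement, chemokine and mucosal immune genes were mixed, with 3 of 10 higher (Cxcl15, Icam1 and Hp) and 4 lower, Cxcl5 and Pigr among them, and a median of -0.80. Pigr, which carries IgA across epithelia, was lower at 0.324 (0.262 to 0.398). Icam1, an adhesion molecule, was higher at 3.48 (2.32 to 5.34).

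Of 8 measured goblet and mucin genes, 4 were lower (Muc5b, Agr2, Tff2 and Clca1) and none higher, with a median of -2.85. Muc5b, the main gel-forming mucin of healthy airways, gave 44 counts in 11 members and 1203 counts in all 72 Scgb3a1-high wells. Levels there were 1.29, 20.2 and 62.9, and the highest member reached 27.8, so the classes overlapped through a few members (0.0381, 0.0275 to 0.0514). Without 1 member its log2 ratio was -5.57 instead of -4.72. Tff2, a trefoil peptide, was found in 6 members and 68 Scgb3a1-high wells (0.0128, 0.00727 to 0.0208), a log2 ratio of -6.29, or -7.46 without 1 member. Clca1, a goblet cell secreted protein, had no count in members and 120 in 23 Scgb3a1-high wells. It was measured through those wells alone, with a log2 ratio of -5.26 or below with 3 counts in place of 0. The endoplasmic reticulum and secretory machinery, which all secretory cells use, had 1 of 21 lower and none higher (median -0.17).

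**Figure D3:**
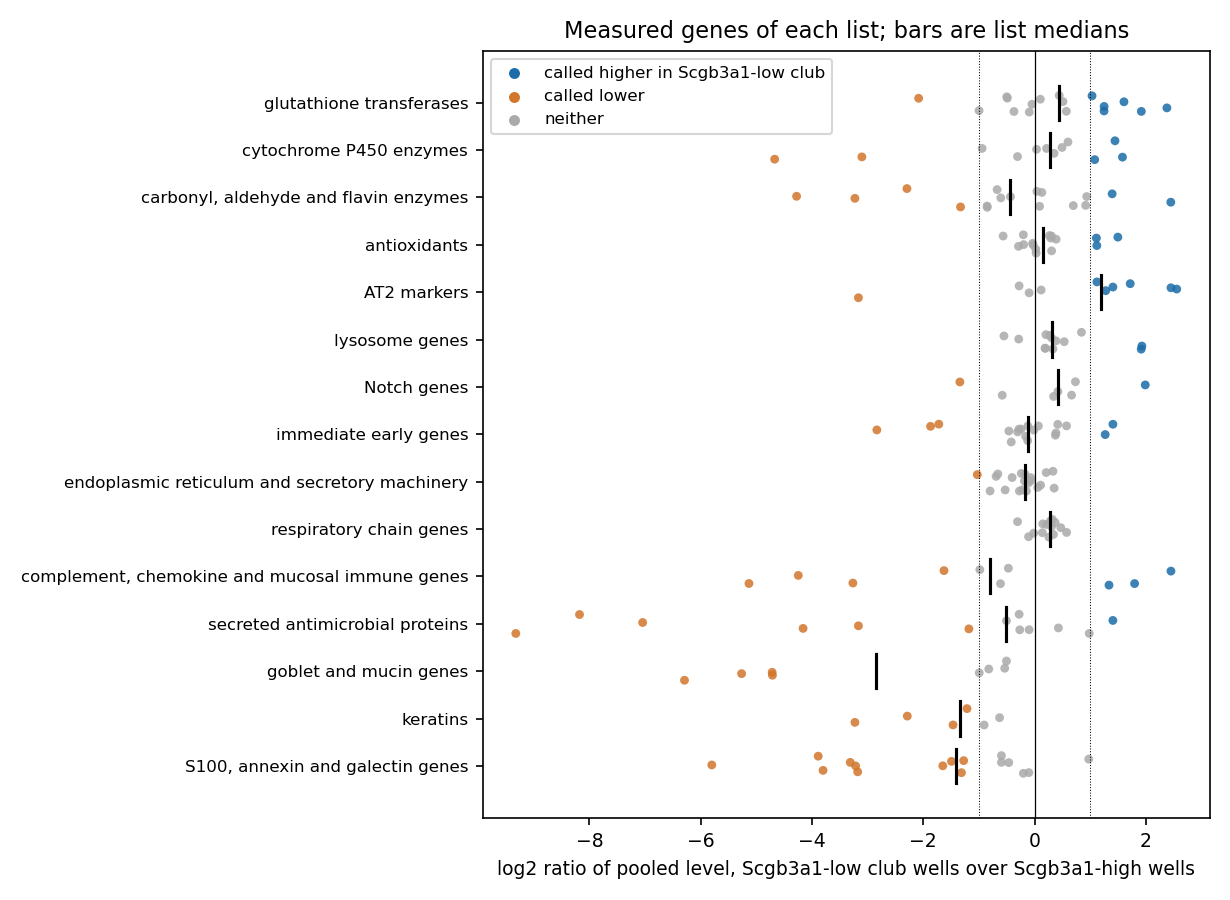
Each point is a measured gene, placed by the log2 ratio of its pooled level in Scgb3a1-low club wells over Scgb3a1-high wells (x) in its gene list (y); blue genes were called higher, orange lower and grey neither, short black bars are list medians and dotted lines mark 2-fold. The AT2 list has a median of 1.20, and the goblet, keratin and S100 lists have medians of -2.85, -1.34 and -1.40.

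Keratins, the intermediate filaments of epithelia, were lower in 4 of 6 (Krt8, Krt19, Krt15 and Krt23; median -1.34). Krt15 stood at 0.107, and at 0.179 without 1 Scgb3a1-high well. Krt8 had medians of 7.15 in members and 15.3 in Scgb3a1-high wells (0.431, 0.381 to 0.487). Krt19 was lower at 0.362 (0.308 to 0.425), with a log2 ratio of 0.25 in the third set. S100, annexin and galectin genes, which encode calcium-, membrane- and sugar-binding proteins, were lower in 10 of 16 with none higher (median -1.40). S100a6 was found in 15 members and 69 Scgb3a1-high wells (0.0675, 0.0482 to 0.0923), a log2 ratio of -3.89, with -4.51 without 1 member and -0.04 in the third set. Anxa8 gave 2 and 116 counts, and Lgals3, galectin 3, 43 and 405 (0.110, 0.0787 to 0.152). S100a11 was at similar medians, 8.73 and 10.3, and was not called.

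Epithelial channels and pumps were lower in 5 of 17 (Ano1, Slc12a2, Kcne3, Fxyd3 and Clic6) and higher in 1 (Scnn1b), with a median of -0.53. Scnn1b, the beta subunit of the sodium channel that absorbs airway liquid, gave 157 and 52 counts (3.14, 2.28 to 4.39), with a log2 ratio of -0.08 in the third set. Scnn1a, the alpha subunit, was 1.52-fold higher (1.18 to 1.98) and not called. Slc12a2, the chloride-loading cotransporter, was lower at 0.355 (0.269 to 0.463), and the chloride channel Ano1 at 0.215 (0.105 to 0.405). Fxyd3, a regulator of the sodium pump, gave 15 and 291 counts (0.0536, 0.0296 to 0.0899). No gene of 8 among claudins and tight junctions was called.

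Transcription factors gave few counts. Of 25 measured, Foxa2 and Rarg were higher and Foxp2, Sox9, Elf3 and Id1 lower (median -0.14). Foxa2 was not called without 1 member. Elf3, an epithelial ETS factor, gave 50 and 141 counts (0.369, 0.262 to 0.513), and Sox9, known from distal tips and glands, 1 and 27. Nkx2-1, the lung lineage factor, and Sox2, the airway factor, were not called at 1.76 (1.06 to 2.98) and 0.628 (0.408 to 0.953). Of 7 measured Notch genes, the receptor Notch1 was higher on 42 and 11 counts (3.97, 2.01 to 8.56), and the nuclear effector Rbpj lower on 11 and 29. The target Hes1 stood at 154 and 101 counts (1.59, 1.23 to 2.06) and was not called.

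Immediate early genes, which respond within minutes to stimulation and to tissue dissociation, were called in 5 of 19, with Socs3 and Gadd45b higher and Klf4, Hspa1a and Hspa1b lower (median -0.12). Klf4 gave 31 and 230 counts (0.140, 0.0931 to 0.205). Fos and Jun were not called, at 0.727 (0.609 to 0.866) and 1.34 (1.13 to 1.58). Transcripts of the sorted proteins were not called either: Epcam stood at 1.01 (0.636 to 1.62) and Cd24a at 0.694 (0.578 to 0.832). Of 11 surface genes, Itgb4 and Cd81 were higher and Itga6, Ly6a and Cd14 lower, but Itgb4 was not called without 1 member, nor Itga6 without 1 Scgb3a1-high well. Ly6a, the stem cell antigen Sca-1, gave 31 and 151 counts (0.214, 0.140 to 0.316).

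Outside the lists, Ptgs2 (chromosome 1, 150100031 to 150108227), the inducible cyclooxygenase of prostaglandin synthesis, had the largest ratio of genes higher in members among those with at least 100 counts. It gave 250 counts in 60 of 84 members and 32 counts in 19 of 72 Scgb3a1-high wells, 8.13-fold (5.61 to 12.1). Member levels were 0, 3.42 and 33.3, and 29 members lay above the highest Scgb3a1-high well at 5.66. Ptgr1, a reductase that inactivates prostaglandins, was 3.85-fold higher (2.50 to 6.13). Dcxr, the xylulose reductase, was 3.54-fold higher (2.80 to 4.50), with 50 members above the highest Scgb3a1-high well. Clic3, Dram1, Atp11a, Cdkn1a, Nectin2 and Idh2 were also among the 10 with the largest ratios, with Atp11a at a log2 ratio of -0.55 in the third set. On the lower side stood Calml3, an epithelial calmodulin-like protein, with 1 and 99 counts, the bacterial peptidoglycan sensor Pglyrp1 (0.0582, 0.0261 to 0.113), the metal-binding Mt1 and Mt2 (0.191 and 0.108), AW112010, Zfp703, Sgk1, Perp, Timm22 and Ccdc36.

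**Figure D4:**
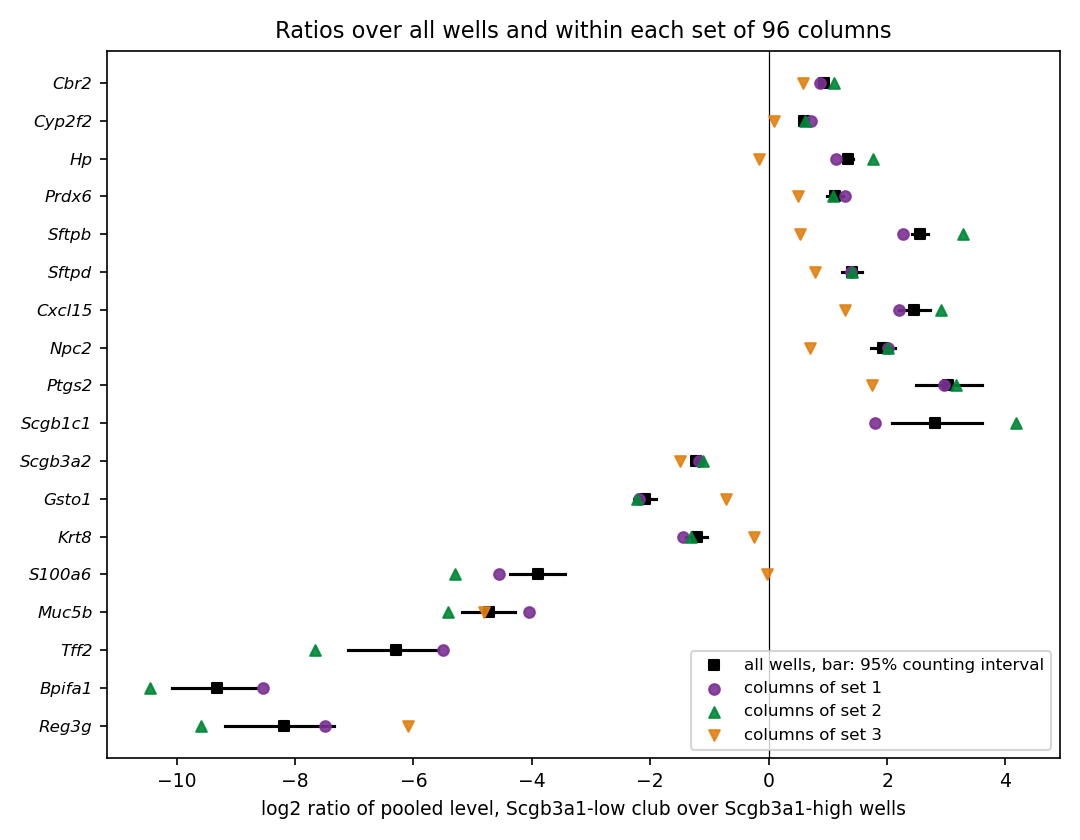
Black squares are log2 ratios of pooled levels, Scgb3a1-low club over Scgb3a1-high wells, with 95% counting intervals (x) for 18 genes (y), and coloured symbols are the same ratio within the first, the second and the third set of 96 columns where both classes together held at least 20 counts there. Symbols of the first and second set lie on the side of the black square for each gene plotted; in the third set, with 4 Scgb3a1-high wells, Hp lies at -0.16 and S100a6 at -0.04.

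Against the 63 Sftpc wells, members were higher in club enzymes and lower in surfactant, lipid synthesis and MHC class II genes. Of 3684 measured genes, 250 were higher (6.79%) and 605 lower (16.4%), with a median log2 ratio of -0.24. Other scalings moved that median by 0.21 to 0.38 and the share of higher genes among called ones from 29.2% to between 42.4% and 54.2%. The counts of lower genes in this comparison are therefore partly set by the scale. Club markers were higher in 13 of 14 (median 2.60), with Aldh1a1 at 17.8-fold (13.1 to 25.0) and Scgb3a2 at 12.0-fold (10.8 to 13.3). A single Sftpc well held 16 of the 41 Aldh1a1 counts and 174 of the 385 Scgb3a2 counts there. Without it the ratios were 28.2 (19.0 to 43.7) and 21.1 (18.4 to 24.3). Without the 5 Sftpc wells that also held Scgb1a1 at 10% or more, they were 89.5 (43.3 to 223) and 53.5 (42.6 to 68.2), and Cp stood at 93.0 (25.6 to 770.2). Within the first set of columns the log2 ratios were 2.10 for Aldh1a1 and 1.71 for Scgb3a2, so the size of these differences rests on which wells enter. Glutathione transferase and synthesis genes were higher in 11 of 16 (median 1.69). Higher too were 7 of 10 P450 and related genes (1.77) and 11 of 17 carbonyl, aldehyde and flavin enzymes (1.39). Ceruloplasmin (Cp), a copper-carrying ferroxidase, was 43.4-fold higher (18.5 to 134), on 435 and 5 counts.

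All 14 measured AT2 genes were lower in members (median -4.09), as were 14 of 16 lipid and cholesterol synthesis genes (-2.13) and 4 of 4 MHC class II genes (-5.35). The Sftpc wells were chosen by an AT2 gene, so the AT2 count describes the classes and tests nothing. Some AT2 genes, such as Lyz2, reached 20 counts only through the Sftpc wells. Of the class II genes, H2-Ab1 and H2-Eb1 had no count in members and were measured through the Sftpc wells alone. Against Scgb3a1-high wells only Cd74 was measured, and it was not called (log2 ratio 0.91). Low class II levels thus do not set members apart from that class. Sftpb was lower at 0.372 (0.354 to 0.391) and Lyz2, lysozyme 2, at 0.000789 (0.000163 to 0.00231), on 3 and 1896 counts. Prdx6 was higher at 4.45 (3.76 to 5.31), and Ptgs2 was not called at 1.31 (1.03 to 1.68). Sox2 gave 38 counts against 1, and Nkx2-1 was lower at 0.430 (0.281 to 0.657) but had a log2 ratio of 0.76 among wells above 20 times the higher control. Notch1, Notch2 and the target Nrarp were higher among 5 measured Notch genes, but Notch2 was not called without 1 member, and Nrarp gave 2 counts in Sftpc wells. Outside the lists, members were higher in the lipid phosphatase Plpp3 (9.48, 4.88 to 21.1, and 20.5 without 1 Sftpc well), the sulfhydryl oxidase Qsox1 (8.41, 3.96 to 21.4) and the heme synthesis enzyme Alas1 (4.85, 3.56 to 6.74). They were lower in complement C5 (Hc) on 4 and 355 counts and in Lgi3 on 7 and 198. Median totals differed between these classes, 5456 against 3529 counts.

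Members were not alike. Variation was measured for each of the 192 genes with at least 200 counts in the class as the dispersion of well counts about the pooled share, which is 1 where wells differ by counting noise only. The median gene had 1.54, above the 1 of counting noise, and 1.30 with wells thinned to equal depth. Over 2 stood 58 genes, and over 4 stood 25. Thinning each well to 3151 counts left 38 genes over 2, and within single sets of columns the count was 44, 55 and 72. The genes with the largest values were secreted proteins, club enzymes and the noncoding RNAs Rn45s, Malat1 and Rn4.5s. Scgb1a1 had 90.8, a gene of the rule whose spread the limit of 10% cuts on one side.

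Scgb3a2 followed with a dispersion of 69.3 and levels from 0 to 582. Its lower and upper quartile were 63.5 and 279.9, so it varied over much of the class and not in a few wells, and its value was 65.1 without the well with the most counts. Its medians in the 3 sets of columns were 189.9, 194 and 89.4. Retnla, a secreted resistin-like protein, had a dispersion of 10.5, was at 0 in 18 of 84 wells and reached 73.0, with a median of 8.14. Sftpa1 had 14.9 and levels of 0, 35.0 and 146. Hp, Sftpb and Cxcl15 had 9.43, 7.05 and 5.59, and Ptgs2 4.27 with 24 wells at 0. Cbr2 and Cyp2f2, found in every well, had 15.7 and 10.3. For Malat1, a nuclear RNA, the value was 13.8, and 6.26 without 1 well. By contrast, ribosomal protein genes such as Rpl6 and Rpl14 were at 0.937 and 0.900.

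**Figure D5:**
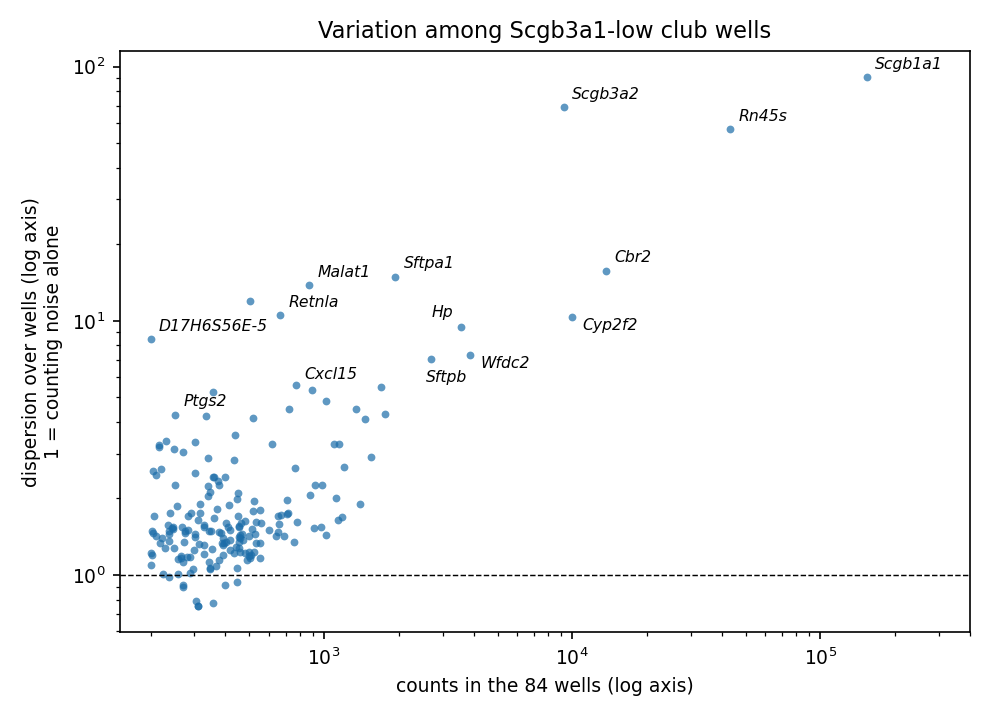
Each point is 1 of 192 genes with at least 200 counts in the 84 Scgb3a1-low club wells, placed by its counts (x, log axis) and its dispersion over wells (y, log axis); the dashed line at 1 is counting noise alone. Most genes lie above the line, with a median of 1.54, while Scgb1a1, Scgb3a2 and Rn45s lie above 50.

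Pairs among the 29 variable genes with at least 400 counts were compared across the 84 wells, as a description with no p, since the levels of a well share its depth and its total. Of 406 pairs, 11 had a Spearman correlation over 0.4 and 1 was below -0.4. The highest was between Hp and Sftpb, at 0.58, and 0.53 when ranked within sets of columns. Cbr2 went with the lipid-binding protein Sec14l3 (0.49) and with Prdx6 (0.47). Scgb3a2 went with Retnla (0.47), Wfdc2 (0.41) and Hp (0.41), and transferrin (Trf) with Cp (0.48) and Cyp2f2 (0.47). The lowest pair was Malat1 with Wfdc2 at -0.43.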

How the data were processed

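Values are raw whole-number counts that the authors deposited as a single table of 24781 gene symbols by 288 wells, with no scaling. Per the submitters' processing notes, reads were aligned with STAR to mm10. Annotation, counting tool, use of strand and collapse of molecular barcodes were not given in the sources used here, so copies made by PCR may be counted separately and intervals may be too narrow. Near-identical gene copies are uncertain.

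Members, gene lists and comparisons were chosen with earlier results of these data known. Wells were kept above 10 times the higher control's total. Pooled levels (counts per 10000) were compared by their ratio with an exact conditional binomial 95% interval, with 3 counts in place of 0 (Python 3.11.15, numpy 2.4.6, scipy 1.17.1, pandas 2.3.3). Alternatives used edgeR 4.0.16 for TMM factors. The steps were tested on simulated counts. No doublet caller was run, and no 2 wells held identical counts. Named genes were the markers, up to 4 members of each list with the most counts and any called member where 5 or fewer were called, the 10 genes outside the lists with the largest ratio in each direction among those with at least 100 counts, and the 20 most variable genes; other list members named were chosen after their values were seen. Of the 24781 symbols, 24241 matched GENCODE M21 (GRCm38). The searched promoter words and window were settled after a first look at the matches. The values of 1 gene are not reported here.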

Additional observations from a re-analysis of the deposited data

Results flagged for a closer look

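Wells under the limit of 2340 counts entered no comparison, and some of them met the shares of the rule. Whether these held a cell of the class was not tested. Of the 59 removed wells, 12 met the shares of the rule, and 9 of these held more Scgb1a1 counts than either negative control (20 and 18). The Scgb1a1 counts of these 9 wells were 36, 153 and 488 in the lowest, median and highest well. Their totals were 160, 1075 and 2166 at the lowest, median and highest. Pooled over the 9 wells, Cyp2f2, Cbr2 and Hp stood at 76.9, 268 and 44.0 counts per 10000, against 206, 283 and 73.5 in the members.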

How the results depend on the processing

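Other limits for the class gave 65 to 92 members instead of 84. Of 128 recomputed counts, 88 stayed within 1.5 times the reported one. Against all other kept wells, genes lower numbered 318 with a limit of 20 times the control, genes higher 266 with no minimum of counts, and higher and lower 101 and 329 after thinning, 63 and 242 with a minimum of 50 counts, 68 and 208 in the first set of columns, and 98 and 277 in the second, with 182 lower in the third. Against Scgb3a1-high wells, they were 142 and 183 after thinning, 102 and 138 with a minimum of 50, 112 and 175 in the first set and 34 and 17 in the third, with 420 higher under no minimum and 142 higher in the second set. Against Sftpc wells, they were 62 and 173 with the limit of 20 times, 419 and 354 with TMM factors, 385 and 393 with median of ratios factors, 123 and 228 with a minimum of 50, 41 and 83, 116 and 218, and 126 and 168 in the 3 sets, and 141 and 332 without the third set (chosen after seeing the data), with 337 lower after thinning and 985 lower under no minimum. Thinning left 38 genes with dispersion over 2. Fewer genes were tested under the stricter minimum, thinning and single sets; for the others the cause was not tested.

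Of 9862 log2 ratios of single genes under alternatives, 24 changed sign in a gene called higher or lower in the main comparison. The 9862 include genes that were not called, whose changes of sign were not counted. Leaving out the well with the most counts of a gene, in members or in the compared class, changed no sign of a called gene. Some uncalled genes did change sign, such as Aqp5 against Scgb3a1-high wells (0.04, and -0.02 without 1 member). Ratios of genes with under 20 counts in both classes together under a setting were left out, a step chosen after seeing the values. Without that step, 77 of 9727 changed sign in a called gene, against 24 of 9211 with it. Those 2 totals hold no leave-outs of single wells. Against all other wells these were Foxj1 at -3.04 with Scgb1a1 at least 20% and -2.05 without the 3 Foxj1 wells, Ager 0.21 and Id2 0.27 with the limit of 20 times, Ager 0.47 and Elovl1 0.11 in the first set, and in the third set Lypd2 0.51, Gsto1 0.99, Pigr 1.43, S100a6 0.12 and Slc12a2 0.0084. Against Scgb3a1-high wells in the third set they were Hp -0.16, Krt19 0.25, Anxa2 0.30, Scnn1b -0.076, Sfta2 -0.30 and Atp11a -0.55. Against Sftpc wells they were Retnla -0.54, Nkx2-1 0.76 and Ccdc36 0.58 with the limit of 20 times, H2-D1 0.49, Hopx -0.57 and Emp1 -0.34 in the first set, and Slc12a2 0.044 in the third. The cause was not tested. Without the 5 Sftpc wells that also met the limit on Scgb1a1, an alternative chosen after seeing the data like both leave-outs of single wells, 262 genes were higher and 606 lower. No paired analysis was possible because replicate numbers shared by sorted cells and controls only name wells.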
